A study of Mus musculus with 40 samples.

Results

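The comparison described here sets the organoid culture labelled 2C+VC against the culture labelled 2C, with 1 library each, in mouse lung organoids. Genes were taken when they reached 5 TPM (a gene's transcripts as a share of the library's transcripts, on a scale whose sum is fixed) in the higher of the 2 libraries, which left 11047 of 55260 genes. The measure is the difference of log2(TPM + 1), 2C+VC minus 2C, and a gene counts as past the fold when that difference is at least 1 in size. With 1 library per culture there is no test and no replicate check, so no p-value is given for this comparison.

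The series holds 40 mouse RNA-seq libraries of embryonic lung tips and of branching lung organoids, cultures grown from the epithelium of such tips. Of these, 5 share a table: 2C+VC, 2C+F10, 2C+MTG, 1 ALL library without a replicate number, and 2C. A second table holds ALL-VC, ALL-MTG, ALL-FGF10 and ALL with 2 numbered replicates each. All 13 are labelled lung organoids, of a type called 2C or ALL-factor, and the labels of these libraries give no strain, age, dose, culture time or animal. RNA was extracted as total RNA and libraries were made with an mRNA kit. No label explains the names 2C, VC, MTG, F10 or ALL, and reading a plus sign as an addition to 2C, a minus sign as an omission from ALL, and ALL as complete is an assumption.

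Distal lung epithelium gives rise to alveolar type 2 (AT2) cells, which make, store and secrete surfactant, and to flat alveolar type 1 (AT1) cells, across which gas exchange takes place. Proximal epithelium gives rise to secretory club cells and to ciliated cells. Secretory epithelium of the lung is also known for its antimicrobial proteins, its neutrophil-attracting chemokines and, in AT2 cells, for MHC class II molecules, which present peptides to T cells.

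Both libraries carried the transcripts of lung epithelium. The lung transcription factor gene Nkx2-1 stood at 377 TPM in 2C+VC and 293 TPM in 2C, and the epithelial adhesion gene Epcam at 254 TPM in 2C+VC and 289.6 TPM in 2C. Mitochondrial genes took 9.76% of TPM in 2C+VC and 10.4% in 2C, and 14002 genes reached 1 TPM in 2C+VC and 13977 in 2C. Sequencing depth is unknown, since TPM keeps none. The 2 libraries differed in sex-linked genes. The Y-linked genes Eif2s3y and Ddx3y stood at 85.1 and 33.8 TPM in 2C+VC and were listed at 0 in 2C, while the X-inactivation transcript Xist stood at 0.3 TPM in 2C+VC and 446 TPM in 2C. The 2C+MTG library was like 2C+VC in this respect (Eif2s3y 83.3 TPM, Xist 0.21 TPM), and the 2C+F10 library was like 2C (Eif2s3y 0, Xist 277 TPM). VC and the source of the cells cannot be told apart in this pair, and the main values are also given against 2C+MTG, whose sex-linked genes match, and against 2C+F10. Of 358 genes of chromosome X, 13 were higher and 19 lower past the fold.

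Apart from the sex-linked genes above, the 2C+VC culture had higher levels of genes of secretory and alveolar epithelium, mucosal defence and chemokines than 2C, and lower levels of the imprinted neighbours H19 and Igf2. Of the 11047 genes, 1062 were past the fold (9.61%): 642 higher (5.81%) and 420 lower (3.8%) in 2C+VC. The median difference over all genes was -0.0967. Set against the median of 2C, 2C+F10 and 2C+MTG in place of 2C, 574 genes were higher and 212 lower. Protein-coding genes made up 516 of the higher and 193 of the lower genes. Genes of small RNA types held 29 of the higher and 110 of the lower ones, and 36 of 37 rRNA genes were lower. The 2C+VC library listed 78 genes of 100 to 150 nt above 0 TPM and the 2C library 115. The part of library preparation in the lower counts was not tested. At the edge of the 5 TPM minimum, the sperm tail gene Ropn1l (5.0 TPM in 2C+VC, 1.87 in 2C) and the cytokine receptor gene Cntfr (1.9 in 2C+VC, 5.01 in 2C) were just inside. Isoc2b (4.97 TPM in 2C+VC, 1.48 in 2C) and the peptide transporter gene Slc15a1 (4.98 TPM in 2C+VC, 1.35 in 2C) were just outside. A gene that reaches the minimum only through the library in which it is high had to differ, so counts of genes past the fold are given as descriptions.

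**Figure D1:**
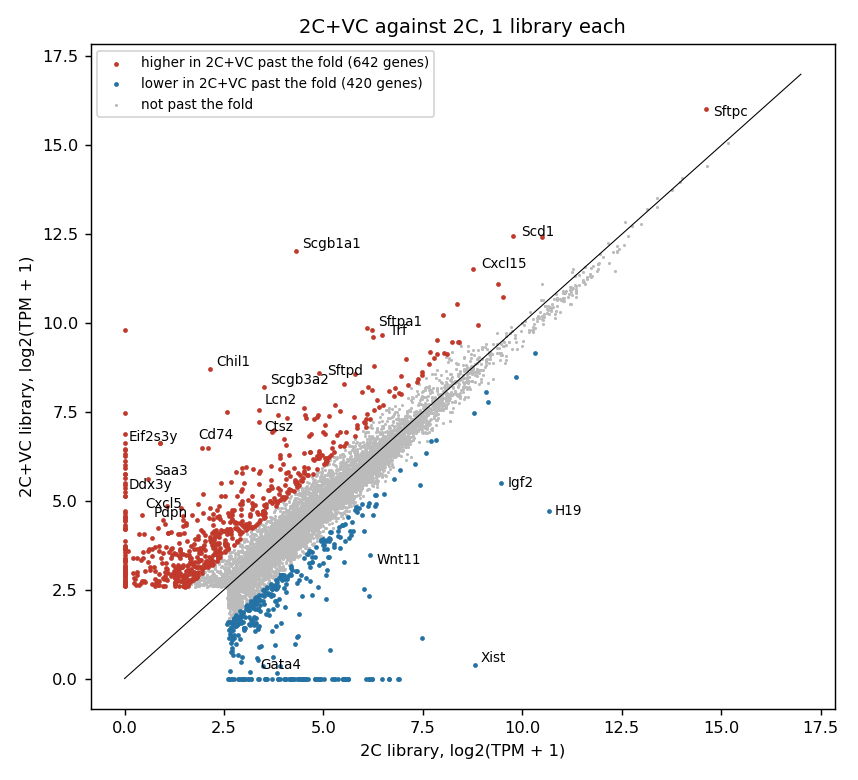
Each point is 1 of the 11047 genes, with log2(TPM + 1) in the 2C library on the horizontal axis and in the 2C+VC library on the vertical axis. Red points (642) were higher and blue points (420) lower in 2C+VC by at least 1 on the log2 scale. Scgb1a1, Chil1 and Scgb3a2 stand far above the diagonal, H19 and Igf2 far below it, and Eif2s3y, Ddx3y and Xist mark the difference in sex-linked genes.

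Secretoglobins of club cells were among the genes furthest above 0, and Scgb1a1 had the largest difference above 0 of all genes named. Scgb1a1, the major secreted protein of club cells (chromosome 19, 9083636 to 9087958 in GRCm38), stood at 4156 TPM in 2C+VC, 371 in 2C+F10, 0.53 in 2C+MTG, 7.62 in the unnumbered ALL library and 19.0 in 2C. The 2C+VC value was 219-fold that of 2C, a log2 difference of 7.70, and the library with the next highest value was 2C+F10. Scgb3a2, a second secretoglobin of the airway, stood at 292 TPM in 2C+VC, 49.0 in 2C+F10, 0 in 2C+MTG, 0 in ALL and 10.4 in 2C (4.68). Both genes were highest in 2C+VC, then in 2C+F10, then in 2C. In the separate table of tips and organoids, Scgb1a1 was listed at 0 in all 4 embryonic tips and reached at most 5.97 TPM in 10 organoids; that table was normalized apart from this one. The other club and goblet genes were low or little different. Cyp2f2, a cytochrome P450 of club cells, had 179 TPM in 2C+VC, 326 in 2C+F10 and 115 in 2C, a difference of 0.64 that is not past the fold. Of the 15 genes of the club and secretory list only Scgb1a1, Scgb3a2 and Cyp2f2 reached 5 TPM, and the proximal transcription factor gene Sox2 was at 2.14 TPM in 2C+VC and 3.53 TPM in 2C. Scgb3a1, Bpifa1, Reg3g and Tff2 were listed at 0 in both libraries. In bulk RNA, more cells of a type and more RNA per cell cannot be told apart, here and in the groups that follow.

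Surfactant and other AT2 genes were higher as a group. Of 20 AT2 genes, all 20 reached 5 TPM, 16 were higher past the fold, none was lower, and all 20 had a difference above 0, with a median of 1.63. The surfactant protein genes differed by unequal amounts. Sftpc, a surfactant protein gene of the AT2 list, stood at 66781 TPM in 2C+VC and 24913 TPM in 2C (1.42). Sftpb, needed for the surface film, stood at 5512 TPM in 2C+VC and 1430.2 TPM in 2C (1.95). The collectins, which bind microbes, differed more: Sftpa1 (chromosome 14, 41131782 to 41136452) had 902 TPM in 2C+VC and 74.0 TPM in 2C, 12.2-fold (3.59), and Sftpd had 386 TPM in 2C+VC and 28.5 TPM in 2C, 13.6-fold (3.72). For Sftpa1 the unnumbered ALL library, at 886 TPM, was close to 2C+VC, and 2C+F10 (208) and 2C+MTG (59.6) were nearer to 2C.

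Chil1, a chitinase-like gene made by AT2 cells (chromosome 1, 134182176 to 134190181), had the next largest difference above 0, with 416 TPM in 2C+VC, 8.75 in 2C+F10, 1.61 in 2C+MTG, 98.2 in ALL and 3.46 in 2C (6.55). Slc34a2, the phosphate transporter that recovers phosphate from surfactant, was 4.5-fold higher (1469.5 TPM in 2C+VC, 327 TPM in 2C). Genes of the lamellar body, in which surfactant is stored, were also higher: the lipid pump gene Abca3 (363 TPM in 2C+VC, 123 TPM in 2C), the membrane gene Lamp3 (585 TPM in 2C+VC and 204 TPM in 2C) and the proteases Napsa (139 TPM in 2C+VC and 31.6 TPM in 2C) and Ctsh (2179 TPM in 2C+VC and 663 TPM in 2C), which process surfactant protein precursors. The AT2 genes that were not past the fold were Hc (0.86), the membrane mucin gene Muc1 (0.97), Ppp1r14c (0.56) and the calcium-binding gene S100g (0.89). Against 2C+F10 the list had 10 of 20 higher with a median of 0.874, and against 2C+MTG 17 of 20 higher with a median of 2.36 (of all genes, 4.07% were higher against 2C+F10 and 7.86% against 2C+MTG). The transcription factor genes Cebpa (140.1 TPM in 2C+VC, 55.9 TPM in 2C) and Elf5 (117 TPM in 2C+VC and 31.8 TPM in 2C) were higher past the fold, and those of lung epithelium in general, Foxa1 (-0.34), Foxa2 (0.16) and Gata6 (0.36), were not.

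AT1 genes were higher too. Of 20 AT1 genes, 19 reached 5 TPM and 13 of them were higher past the fold, none lower, with a median of 1.2. Pdpn, a membrane glycoprotein of AT1 cells (chromosome 4, 143267431 to 143299564), stood at 17.9 TPM in 2C+VC, 1.08 in 2C+F10, 0.86 in 2C+MTG, 8.7 in ALL and 0.79 in 2C (3.40). The water channel gene Aqp5 (chromosome 15, 99590782 to 99594829) stood at 170.1 TPM in 2C+VC, 28.6 in 2C+F10, 16.7 in 2C+MTG, 125 in ALL and 13.6 in 2C (3.55). For both genes the 3 libraries without VC in their label lay together and below 2C+VC and ALL. Spock2, a matrix proteoglycan gene, showed the same order (15.7 TPM in 2C+VC, 0.64 in 2C+F10, 1.1 in 2C+MTG, 10.1 in ALL, 0.4 in 2C). The more abundant AT1 genes differed less: the receptor gene Ager had 1685 TPM in 2C+VC and 735 TPM in 2C (1.20), the cofactor gene Hopx 367 TPM in 2C+VC and 176 TPM in 2C (1.06), and the tight junction gene Cldn18 731 TPM in 2C+VC and 229 TPM in 2C (1.67). Clic5 (0.58), Lmo7 (0.13) and Sema3e (-0.39) were not past the fold. Against 2C+F10 the list had 4 of 19 higher (median 0.612) and against 2C+MTG 10 of 19 (median 1.06).

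Ion and water transport of the alveolar surface gave 3 of 14 genes past the fold, all higher, with a median of 0.74. Apart from Aqp5 these were Scnn1a, the alpha subunit of the epithelial sodium channel that clears fluid from the airspace (167 TPM in 2C+VC, 96.4 in 2C+F10, 8.28 in 2C+MTG, 104 in ALL, 34.5 in 2C), and the chloride transporter gene Slc26a9 (72.5 TPM in 2C+VC and 14.0 TPM in 2C). The other channel subunits, Scnn1b (0.97) and Scnn1g (0.93), and the chloride channel gene Cftr (0.72) were higher by less than the fold.

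**Figure D2:**
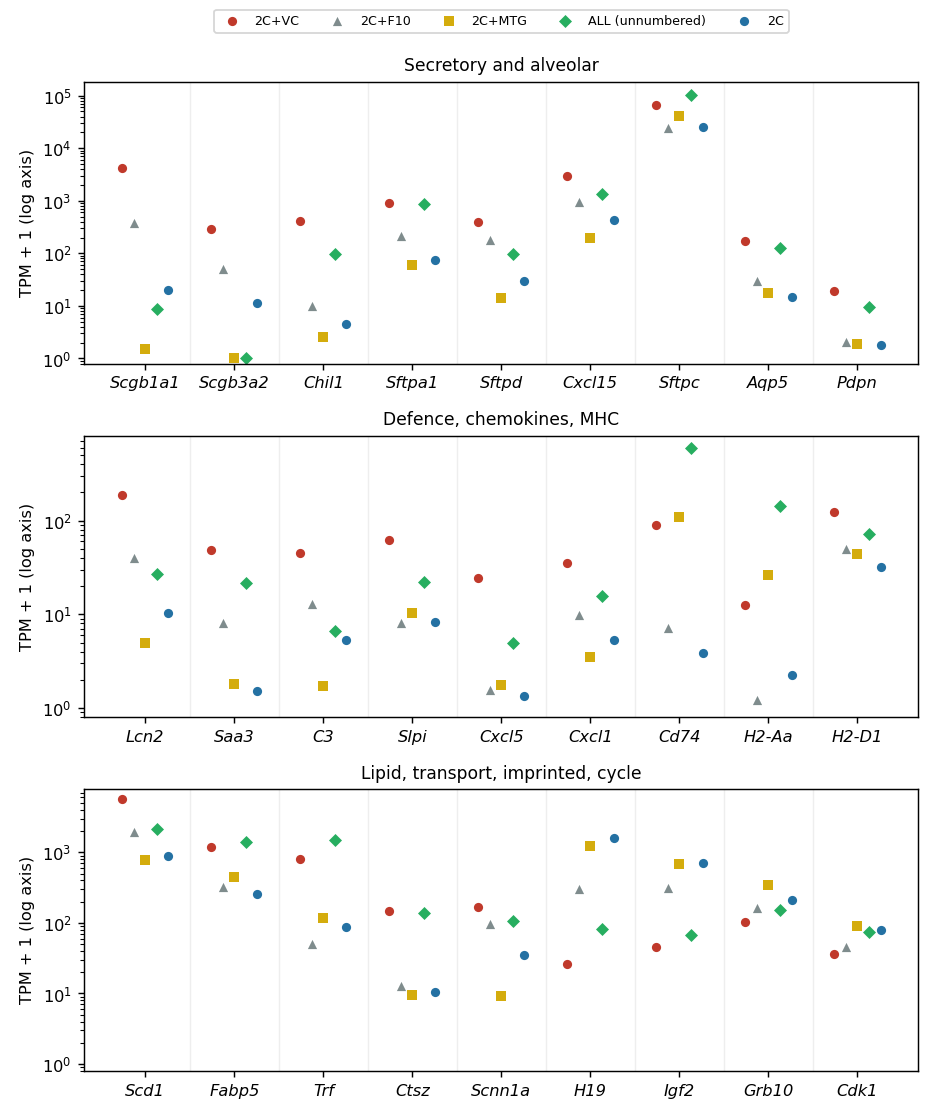
TPM + 1 on a log axis for 27 genes in the 5 libraries of the table, in 3 panels: secretory and alveolar genes, genes of defence, chemokines and MHC, and genes of lipid handling, transport, imprinting and the cell cycle. Each point is 1 library, with 2C+VC leftmost and 2C rightmost within a gene. Scgb1a1 is at 4156 TPM in 2C+VC against 19.0 in 2C, Ctsz is high in 2C+VC and ALL alone, and H19 and Igf2 are lowest in 2C+VC.

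Genes of secreted defence proteins were higher in 2C+VC. Of 16 genes of mucosal defence and complement, 11 reached 5 TPM, of which 9 were higher and 1 was lower past the fold, with a median of 2.78. Lcn2, which binds bacterial siderophores (chromosome 2, 32384633 to 32388252), stood at 188 TPM in 2C+VC, 38.7 in 2C+F10, 3.96 in 2C+MTG, 25.8 in ALL and 9.41 in 2C (4.18). The acute-phase gene Saa3 (chromosome 7, 46711998 to 46715700) stood at 48.0 TPM in 2C+VC, 7.14 in 2C+F10, 0.83 in 2C+MTG, 20.4 in ALL and 0.51 in 2C (5.02). For both, 2C+VC was the highest of the 5 libraries. Complement C3 had 44.4 TPM in 2C+VC and 4.38 TPM in 2C, 10.1-fold, and the protease inhibitor gene Slpi 61.0 TPM in 2C+VC and 7.29 TPM in 2C. The lysozyme genes Lyz1 (379.8 TPM in 2C+VC, 54.3 TPM in 2C) and Lyz2 (105 TPM in 2C+VC and 15.1 TPM in 2C) were higher as well, but they are near-identical neighbours among which reads are hard to divide. The member that was lower, complement factor I (Cfi), had 2.03 TPM in 2C+VC and 5.47 TPM in 2C. Against 2C+F10 6 of 10 were higher (median 1.2), and against 2C+MTG 9 of 11 were higher and 1 lower (median 3.32).

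Chemokines had the same direction. Of 14 chemokine genes, 7 reached 5 TPM, and all 7 were higher past the fold, with a median of 2.73. Against 2C+F10 5 of 8 were higher (median 1.64), and against 2C+MTG 7 of 7 (median 3.35). Cxcl5, which draws neutrophils (chromosome 5, 90759360 to 90761624), had 23.3 TPM in 2C+VC, 0.56 in 2C+F10, 0.76 in 2C+MTG, 3.99 in ALL and 0.35 in 2C (4.17). Cxcl1 and Cxcl2, ligands of the same neutrophil receptor, were higher too: Cxcl1 had 34.4 TPM in 2C+VC and 4.36 TPM in 2C, and Cxcl2 had 6.88 TPM in 2C+VC and 1.13 TPM in 2C. Cxcl3 had 11.6 TPM in 2C+VC and 1.35 in ALL, and was listed at 0 in 2C+F10, 2C+MTG and 2C. Cxcl15, a chemokine of lung epithelium, was the most abundant, with 2909 TPM in 2C+VC and 432 TPM in 2C (2.75). The interferon-inducible Cxcl10 stood at 0.19 TPM in 2C+VC and 0.18 TPM in 2C, and Ccl2, Cxcl12 and Cxcl14 were listed at 0 in both. Several of these genes lie side by side on chromosome 5, and 3 of them share a run of letters before their start that holds a motif of the factor NF-kappaB.

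The stretches around that run are shown because they belong to 3 genes near each other on chromosome 5 that were all higher. Each is read from RefSeq promoters (GRCm38.p6) on the plus strand, with the longest run that all 3 share in capitals; it starts 71, 97 and 73 bases before the start site of Cxcl1, Cxcl2 and Cxcl3.
Cxcl1 (chr5:90891134-90891224, plus strand): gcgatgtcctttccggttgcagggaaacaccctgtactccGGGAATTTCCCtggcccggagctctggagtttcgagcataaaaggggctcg
Cxcl2 (chr5:90903762-90903852, plus strand): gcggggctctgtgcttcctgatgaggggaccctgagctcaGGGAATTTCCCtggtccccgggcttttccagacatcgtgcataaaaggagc
Cxcl3 (chr5:90785988-90786078, plus strand): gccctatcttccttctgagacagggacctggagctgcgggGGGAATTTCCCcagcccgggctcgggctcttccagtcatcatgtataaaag
The letters GGGAATTTCCC were searched on both strands in the 250 bases before the start site and do not overlap the other motif searched. They were chosen, after the values were seen, as what the 3 promoters share, so their presence in these 3 is no result. They were present in 14 of 32851 promoters (0.0426%) and in 3 of the 6 chemokine genes with an entry, of 9 looked for. Cxcl5, Cxcl16 and Cxcl17 had no entry. Cxcl15, which lies between Cxcl3 and Cxcl1 and was also higher, had an entry that did not hold the letters. A match says that the letters are there, not that a factor binds them.

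MHC genes were higher in 2C+VC than in 2C, but those of class II were higher still in other libraries. Of 15 genes of antigen presentation, 10 reached 5 TPM and 7 of these were higher past the fold, none lower, with a median of 1.43. Against 2C+F10 5 of 10 were higher (median 1.0), and against 2C+MTG 4 of 11 were higher and 2 lower (median 0.243). Cd74, the invariant chain that escorts class II molecules, had 89.3 TPM in 2C+VC, 6.18 in 2C+F10, 108 in 2C+MTG, 586 in ALL and 2.87 in 2C (4.54). The class II chain gene H2-Aa had 11.6 TPM in 2C+VC, 0.21 in 2C+F10, 25.4 in 2C+MTG, 142 in ALL and 1.25 in 2C (2.48). For both genes 2C and 2C+F10 were low, 2C+VC and 2C+MTG were higher, and ALL was the highest. Against 2C+MTG, whose sex-linked genes match, the differences of Cd74 and H2-Aa were -0.27 and -1.07. Class I genes were less varied: H2-D1 had 122 TPM in 2C+VC and 30.8 TPM in 2C (1.95), H2-K1 290.2 TPM in 2C+VC and 109.6 TPM in 2C (1.40), and their shared light chain B2m 209 TPM in 2C+VC and 215 TPM in 2C (-0.04). Ciita, the regulator of class II genes, was at 1.1 TPM in 2C+VC and 0.62 in 2C. Immune-cell genes summed to 2.09 TPM in 2C+VC and 2.74 TPM in 2C over 10 genes, 8 of them at 0 in both. The immune-cell genes Ptprc, Adgre1, Tyrobp and Cd3e were among those at 0. Of 16 interferon-response genes, 5 reached 5 TPM and 1, Ifi27, was past the fold (15.8 TPM in 2C+VC, 5.36 TPM in 2C).

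Class II genes share promoter elements, of which the Y box is one. The stretches that hold its letters are shown for the 4 class II genes in which they were found, from RefSeq (GRCm38.p6), each on its gene's own strand with the Y box in capitals.
H2-Aa (chr17:34287827-34287923, minus strand): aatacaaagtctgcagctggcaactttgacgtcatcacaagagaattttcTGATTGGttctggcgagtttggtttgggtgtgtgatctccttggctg
H2-DMb1 (chr17:34153078-34153174, plus strand): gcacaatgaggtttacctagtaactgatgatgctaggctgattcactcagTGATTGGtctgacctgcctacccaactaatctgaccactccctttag
H2-DMb2 (chr17:34145107-34145203, plus strand): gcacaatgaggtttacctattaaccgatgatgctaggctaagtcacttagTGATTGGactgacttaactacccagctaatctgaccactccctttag
H2-Eb1 (chr17:34305756-34305852, plus strand): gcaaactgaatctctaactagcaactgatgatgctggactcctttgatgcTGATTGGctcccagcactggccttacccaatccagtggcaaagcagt
The letters TGATTGG, searched on both strands in the 250 bases before the start site and chosen after the values were seen, are short and were present in 2375 of 32851 promoters (7.23%). Of 7 class II pathway genes looked for, 5 had an entry and 4 of them held the letters, 50 to 92 bases before the start. H2-Ab1 and Cd74 had no entry. Of the 4 genes shown, H2-Aa, H2-DMb1 (10.3 TPM in 2C+VC, 1.79 TPM in 2C) and H2-DMb2 (6.52 TPM in 2C+VC and 2.5 TPM in 2C), which carry peptides or help to load them, were past the fold, and H2-Eb1 stayed under 5 TPM (2.46 TPM in 2C+VC and 0.27 TPM in 2C).

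Lipid synthesis, on which surfactant depends, was higher in 2C+VC. Of 18 fatty acid genes 15 reached 5 TPM, 5 of them were higher past the fold and none lower (median 0.676). Against 2C+F10 2 of 15 were higher (median 0.305), and against 2C+MTG 5 of 15 (median 0.709). Scd1, the desaturase that makes monounsaturated fatty acids (chromosome 19, 44394455 to 44407879), had 5637 TPM in 2C+VC, 1917 in 2C+F10, 766 in 2C+MTG, 2122 in ALL and 874 in 2C, 6.45-fold over 2C. The fatty acid carrier gene Fabp5 had 1205 TPM in 2C+VC and 254 TPM in 2C (2.24), and the synthase gene Fasn 992 TPM in 2C+VC and 469.9 TPM in 2C (1.08). Cholesterol synthesis differed by little per gene and in 1 direction: 2 of 21 were past the fold, and all 21 had a difference above 0, with a median of 0.722. Pmvk, a kinase of the mevalonate pathway, had 52.1 TPM in 2C+VC and 23.1 TPM in 2C (1.14). The cholesterol list kept a median above 0 against 2C+F10 (0.594, 0 of 21 past the fold) and against 2C+MTG (0.446, 1 of 21).

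Single genes of iron handling, the lysosome and the matrix were also higher, while their lists as a whole were not shifted far: of 9 iron genes 3 were higher and 5 had a difference below 0 (median -0.118), and of 18 basement membrane genes 3 were higher and 9 had a difference below 0 (median 0.118). Trf, encoding the iron carrier transferrin (chromosome 9, 103204001 to 103230444), had 813 TPM in 2C+VC, 48.9 in 2C+F10, 118 in 2C+MTG, 1471 in ALL and 87.4 in 2C (3.20). Ctsz, a lysosomal cysteine protease (chromosome 2, 174427493 to 174439039), had 147 TPM in 2C+VC, 11.9 in 2C+F10, 8.56 in 2C+MTG, 136 in ALL and 9.34 in 2C, 15.8-fold over 2C. Both genes were high in 2C+VC and ALL and low in the other 3 libraries. Most lysosomal genes did not follow Ctsz: of 18 that reached 5 TPM, 3 were past the fold (Ctsz, Ctsh and Hexa), and the list's median was 0.0786, with Ctsd at -0.02 and Lamp1 at 0.28. Hdc, the enzyme that makes histamine, had 27.9 TPM in 2C+VC, 2.83 in 2C+F10, 29.4 in 2C+MTG, 165 in ALL and 1.1 in 2C. The basement membrane gene Nid2 had 29.3 TPM in 2C+VC and 2.61 TPM in 2C (3.07), 2.86 in 2C+F10, 48.5 in 2C+MTG and 66.7 in ALL, and the collagen genes Col4a1 (1.05) and Col4a2 (1.21) were just past the fold. Of 10 genes that respond to FGF and ERK signalling, 4 were higher past the fold and none lower (median 0.801, and 0.791 against 2C+F10 and 0.277 against 2C+MTG): Dusp4 (16.0 TPM in 2C+VC, 3.98 TPM in 2C), Etv4 (10.6 TPM in 2C+VC and 2.69 TPM in 2C), Dusp6 (31.1 TPM in 2C+VC and 11.6 TPM in 2C) and Spry1 (59.0 TPM in 2C+VC and 27.7 TPM in 2C). Etv5 (0.10) and Egr1 (-0.15) were not past it.

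Ciliated-cell genes gave a mixed picture. Of 14, 10 reached 5 TPM, of which 5 were higher and 1 lower past the fold. The higher ones included Dynlrb2 (47.8 TPM in 2C+VC, 15.6 TPM in 2C) and Tmem212 (14.6 TPM in 2C+VC and 0.6 TPM in 2C). The lower one was Ccno, a gene of the multiciliated programme, with 9.73 TPM in 2C+VC and 34.3 TPM in 2C (-1.72), and Foxj1, the master regulator of motile cilia, differed by less than the fold, with 13.7 TPM in 2C+VC and 10.1 TPM in 2C (0.41). With 2C+F10 in place of 2C the list's median turned to -0.196 (1 of 12 higher, 3 lower), where it was 1.1 against 2C. The 2C+F10 library held Foxj1 at 19.6 and Dynlrb2 at 52.2 TPM, and 2C+MTG listed both at 0.

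After Xist, the imprinted neighbours H19 and Igf2 were the named genes furthest below 0. H19, a noncoding RNA expressed from the maternal copy (chromosome 7, 142575529 to 142578143), had 25.1 TPM in 2C+VC, 299.6 in 2C+F10, 1248 in 2C+MTG, 80.6 in ALL and 1616 in 2C, so that the level in 2C was 64.3-fold that in 2C+VC (-5.95). Igf2, a fetal growth factor expressed from the paternal copy (chromosome 7, 142650766 to 142666816), had 44.0 TPM in 2C+VC, 316 in 2C+F10, 693 in 2C+MTG, 66.1 in ALL and 709 in 2C (-3.98). For both, 2C+VC was the lowest library, ALL the next, and 2C the highest. In the separately normalized table both were highest in embryonic tips, with H19 from 2859 to 3533 TPM and Igf2 from 1282 to 1554 TPM, and their medians in 10 organoids were 6.05 and 2.42 TPM. Other imprinted genes differed less. Of 25, 18 reached 5 TPM, 3 were lower and 1 higher past the fold, and the median was -0.383. The third lower one was Grb10, a growth-factor receptor adaptor (102 TPM in 2C+VC, 209 TPM in 2C), and the higher one the amino acid transporter gene Slc38a4 (15.3 TPM in 2C+VC and 3.07 TPM in 2C). Meg3 (0.31), Dlk1 (-0.55) and Cdkn1c (-0.92) were not past the fold.

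Other protein-coding genes lower past the fold included transcription factors, signalling genes and matrix genes. Gata4, a transcription factor of endoderm and heart (chromosome 14, 63198922 to 63271692), had 0.48 TPM in 2C+VC, 9.88 in 2C+F10, 6.9 in 2C+MTG, 0 in ALL and 8.97 in 2C. Wnt11, a WNT ligand, had 10.1 TPM in 2C+VC, 44.3 in 2C+F10, 19.0 in 2C+MTG, 3.1 in ALL and 71.6 in 2C (-2.72), and the WNT target Tnfrsf19 6.55 TPM in 2C+VC and 32.6 TPM in 2C (-2.16). The WNT list as a whole had 1 of 11 higher (Nkd1, 19.4 TPM in 2C+VC and 7.3 TPM in 2C) and 1 lower, with a median of -0.0261. Auts2, Zfp979, Zfp984 and Xlr3a were past the fold below 2C but not below each of 2C, 2C+F10 and 2C+MTG: Auts2 had 1.26 TPM in 2C+VC, 1.7 in 2C+F10, 0.86 in 2C+MTG and 19.2 in 2C, and Zfp979 had 0.11 TPM in 2C+VC, 0.25 in 2C+F10, 9.11 in 2C+MTG and 13.2 in 2C. Cyp1a1, a target of the aryl hydrocarbon receptor, was listed at 0 in 2C+VC, 2C+MTG and ALL, at 59.2 TPM in 2C+F10 and at 6.22 TPM in 2C. The cohesin gene Stag3 (0.13 TPM in 2C+VC, 7.85 in 2C), the matrix gene Fmod (1.78 TPM in 2C+VC and 13.1 TPM in 2C) and the TGF-beta binding gene Ltbp4 (8.67 TPM in 2C+VC and 44.6 TPM in 2C) were also lower.

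Genes of dividing cells were lower in 2C+VC, few of them past the fold. Of 20 cell cycle genes, 3 were lower past the fold and none higher, 19 had a difference below 0, and the median was -0.73. Cdk1, the mitotic kinase, had 35.1 TPM in 2C+VC, 44.6 in 2C+F10, 88.0 in 2C+MTG, 73.1 in ALL and 79.4 in 2C (-1.16), and Mki67, the proliferation marker, 10.7 TPM in 2C+VC, 7.2 in 2C+F10, 37.5 in 2C+MTG, 26.8 in ALL and 21.9 in 2C (-0.97). The direction depends on the library set against 2C+VC: with 2C+MTG 18 of 20 were lower (median -1.38), and with 2C+F10 2 were higher and none lower (median 0.37). DNA replication genes had 0 of 19 past the fold and a median of -0.601, which was -0.0118 against 2C+F10 (0 of 17 past the fold) and -0.984 against 2C+MTG (10 of 22 lower). Notch pathway genes (9 of 9 below 0, median -0.5) and histone lysine demethylase genes (13 of 13 below 0, median -0.286) had no gene past the fold. Against 2C+MTG the Notch median turned to 0.108 and the demethylase median was -0.0595, and against 2C+F10 they were -0.288 and -0.157.

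Other lists differed less between the 2 libraries. Genes of general lung epithelium had 2 of 18 higher (Elf5 and Ehf, both epithelial transcription factors) and a median of 0.0954. Genes of the distal tip progenitor had 3 of 14 higher and a median of 0.571, with Sox9, the tip transcription factor, at 11.9 TPM in 2C+VC and 10.4 TPM in 2C. That list was lower in 2C+VC than in 2C+MTG, with 5 of 14 lower, 1 higher and a median of -0.579, and Clu, a chaperone gene, had 521 TPM in 2C+VC, 2908 in 2C+MTG and 217 in 2C. The unfolded protein response (0 of 14 past the fold, median 0.0765), p53 targets (0 of 12, median 0.116), YAP targets (0 of 9, median 0.127) and collagen prolyl and lysyl hydroxylation (0 of 12, median 0.000475) gave no gene past the fold. Basal and neuroendocrine genes gave none at 5 TPM. Markers of other tissues were low in both libraries: endothelial genes summed to 9.51 TPM in 2C+VC and 15.6 TPM in 2C, blood genes to 0.6 TPM in 2C+VC and 1.14 TPM in 2C, neural genes to 1.91 TPM in 2C+VC and 3.41 TPM in 2C, and gut, liver and stomach genes to 7.23 TPM in 2C+VC and 12.0 TPM in 2C. Mesenchymal genes summed to 64.6 TPM in 2C+VC and 28.5 TPM in 2C, mostly Vim (35.5 TPM in 2C+VC and 13.8 TPM in 2C) and Tagln (22.42 TPM in 2C+VC and 10.46 TPM in 2C), over 15 genes of which 4 were at 0 in both. The defining genes Pdgfra, Pdgfrb and Col3a1 were listed at 0 in 2C+VC and at 0.4, 0.09 and 0.54 TPM in 2C. In 2C+F10 Col3a1 stood at 54.4 TPM and the mesenchymal sum at 139 TPM, and its part in values set against that library was not tested.

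**Figure D3:**
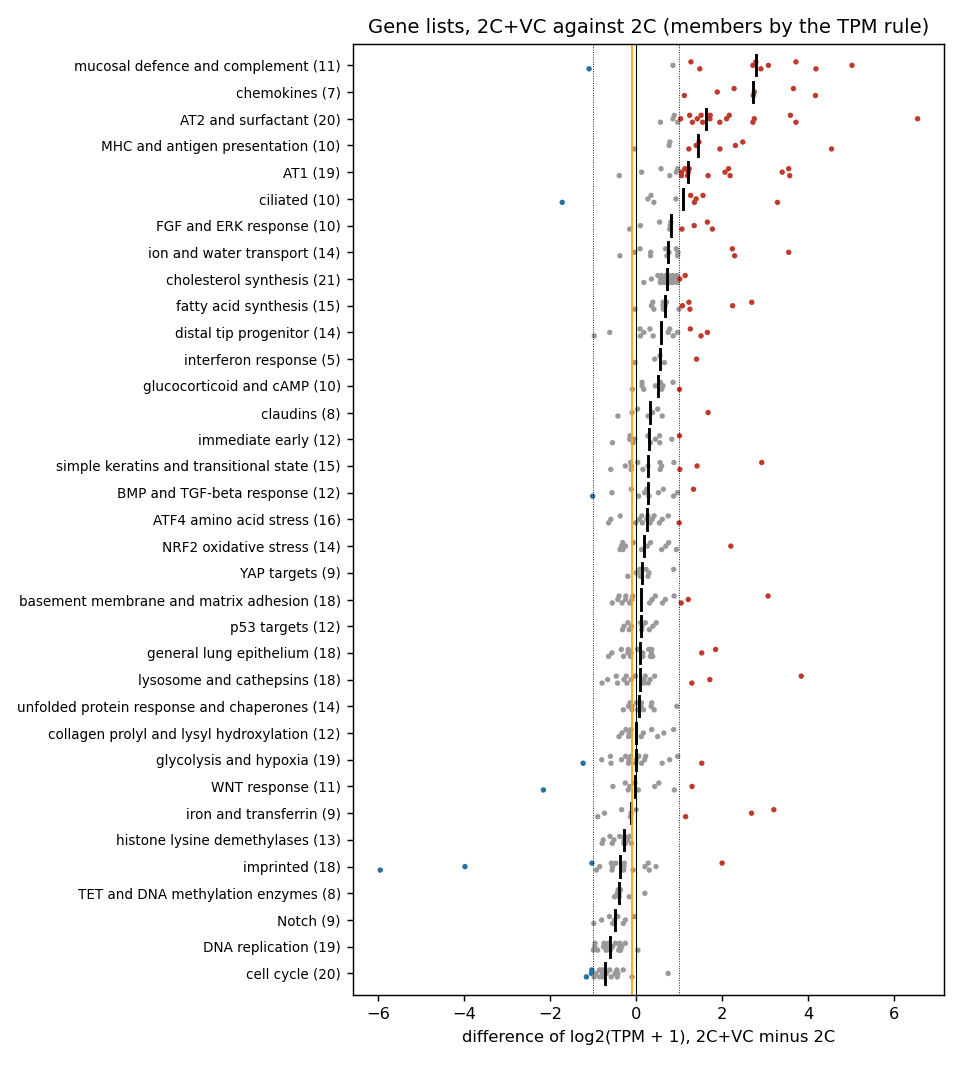
Difference of log2(TPM + 1), 2C+VC minus 2C, for the members of gene lists that reached 5 TPM in either library, with the number of such members in brackets. Each point is 1 gene, red or blue where past the fold (dotted lines at 1 and -1); black bars are list medians and the orange line is the median of all genes, -0.0967. Defence, chemokine, AT2, MHC and AT1 lists lie to the right, cell cycle and DNA replication to the left, and H19 and Igf2 are the outlying imprinted genes.

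The genes were also read against the other 2C-based libraries, 2C+F10 and 2C+MTG, so that all 3 comparisons share the 2C+VC library. The 2C+VC library was above all of 2C, 2C+F10 and 2C+MTG in 555 of the 642 higher genes and below all of them in 205 of the 420 lower genes. Past the fold against 2C+F10 remained 344 of the higher and 118 of the lower genes, and against 2C+MTG 458 and 122. Of all genes, 4.07% were higher and 3.01% lower against 2C+F10, and 7.86% were higher and 3.65% lower against 2C+MTG. The 642 and 420 genes were chosen through their 2C+VC value, which all 3 comparisons share. That a larger share of them than of all genes was past the fold is therefore no result. Scgb1a1, Scgb3a2, Chil1, Lcn2, Saa3, Sftpa1, Sftpd, Aqp5, Pdpn, Ctsz, Scd1 and Cxcl5 were past the fold against all 3. The smallest difference in this group was that of Sftpd against 2C+F10, 1.08, and the largest that of Scgb1a1 against 2C+MTG, 11.40.

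The second question was whether the same genes moved when VC was left out of another culture. ALL-VC and ALL, in the second table, have 2 libraries each and share none with 2C+VC or 2C. The labels do not say whether replicates were separate cultures, so the p-values cover only how far these libraries lie apart, which may be technical. The libraries also differ in sex-linked genes: Eif2s3y stood at 76.8 and 77.9 TPM in the ALL-VC libraries and at 74.5 and 0.22 TPM in the ALL libraries. By limma over the 8 libraries of that table, 119 of 14802 genes passed 0.05 after Benjamini-Hochberg adjustment (0.804%). Of these, 31 (0.209%) were called higher and 88 (0.595%) lower in ALL-VC, and the median of all genes was 0.18. Of the 642 genes higher in 2C+VC, 563 were tested, 46 were called lower in ALL-VC (8.17%) and 1 was called higher. These 46 are 52.3% of the 88. Of the 420 genes lower in 2C+VC, 294 were tested, 7 were called higher in ALL-VC (2.38%, and 22.6% of the 31) and 1 was called lower. Among 9964 tested genes not past the fold, 17 were called lower (0.171%) and 19 higher (0.191%). At an unadjusted p under 0.05, 199 of the 563 were lower in ALL-VC (35.3%, where 5.59% of all tested genes were) and 73 of the 294 were higher (24.8%, where 1705 of all 14802 were). The median change in ALL-VC was -0.483 over the 563 genes and 0.491 over the 294. The counts rest on single libraries. The 119 calls became 8 when ALL-VC replicate 1 was left out and 25 when its replicate 2 was. Leaving out ALL replicate 1 gave 1309 and replicate 2 gave 76, and leaving out ALL-FGF10 replicate 1 gave 43 and replicate 2 gave 38. The 53 genes called in the opposite direction (46 and 7) became 4 and 17 on leaving out either ALL-VC library in the same order, 136 and 26 for ALL, and 22 and 20 for ALL-FGF10.

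Of the genes higher in 2C+VC and called lower in ALL-VC, Ctsz had the largest fall. It stood at 1.26 and 4.65 TPM in the ALL-VC libraries and at 90.9 and 124 TPM in ALL, a limma change of -4.91 ± 0.40 (SE, n = 2 each, adjusted p = 0.00645). The groups did not overlap, and the gene remained called under all 14 alternative fits. MHC class II genes fell as well: H2-Ab1 stood at 12.3 and 16.3 TPM in ALL-VC and 406 and 438 in ALL (-4.80, adjusted p = 0.00484), and H2-Aa at 23.5 and 47.3 TPM in ALL-VC and 665 and 762 in ALL (-4.37, adjusted p = 0.00645). Both were called under all 14 alternatives, as was Akr1b8, an aldo-keto reductase gene (-3.60, adjusted p = 0.00484; 10.6 TPM in 2C+VC and 1.37 in 2C). Akr1b8 stood at 5.69 and 5.55 TPM in ALL-VC and 71.3 and 87.8 in ALL. The unnumbered ALL library, in the other table, held it at 4.86 TPM, below both ALL-VC values. That library held Ctsz, H2-Ab1 and H2-Aa above both ALL-VC values. Cd74 stood at 234 and 369 TPM in ALL-VC and 2302 and 2599.8 in ALL (-3.05, adjusted p = 0.00652), and was called under 13 of 14, the exception being the fit without ALL-VC replicate 1 (adjusted p = 0.0618).

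Pdpn stood at 0.66 and 0.79 TPM in ALL-VC and 22.5 and 20.2 in ALL (-3.69, adjusted p = 0.00652, called under 13 of 14, with adjusted p = 0.0709 without ALL-VC replicate 1). The glutathione transferase gene Gstt2 had 9.03 and 10.7 TPM in ALL-VC and 58.2 and 72.9 in ALL, beside 56.3 TPM in 2C+VC and 9.67 in 2C (limma -2.61, adjusted p = 0.00645). The adhesion gene Icam1 (-1.62), the mucin gene Muc20 (-2.87), the secreted protease-inhibitor family gene Wfdc2 (-1.83) and the class I gene H2-D1 (-1.69) fell as well. Gstt2, Icam1 and Muc20 lost their call without ALL-VC replicate 1, and Wfdc2 and H2-D1 without either ALL-VC replicate, with adjusted p of at most 0.115. Scnn1a had 4.83 and 8.68 TPM in ALL-VC and 42.6 and 35.7 in ALL, a limma change of -2.41 called at adjusted p = 0.0367 and under 6 of 14 alternatives, with a highest adjusted p of 0.201. Its call was lost without either ALL-VC or ALL-FGF10 replicate and without ALL replicate 2. The chemokine gene Cxcl3 (-3.38, adjusted p = 0.0432) was called under 7 of 14 and lost its call without the same 5 libraries. The unnumbered ALL library held H2-D1 at 71.6 TPM, where ALL-VC had 116 and 125 TPM. It held Cxcl3 at 1.35 TPM, where ALL-VC had 22.1 and 10.7 TPM. Pdpn, Gstt2, Icam1, Muc20, Wfdc2 and Scnn1a were above both ALL-VC values in that library.

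In the other direction, Igf2 rose, to 119.9 and 84.5 TPM in ALL-VC against 9.25 and 0.98 TPM in ALL (4.50, adjusted p = 0.0406, called under 4 of 14 alternatives, with a highest adjusted p of 0.236). Its call was lost without any 1 of the ALL-VC, ALL-FGF10 or ALL-MTG libraries. The unnumbered ALL library, in the other table, held Igf2 at 66.1 TPM, between the numbered ALL and the ALL-VC values. Grb10 rose (202 and 190.3 TPM in ALL-VC, 95.9 and 65.3 in ALL, adjusted p = 0.0366, 7 of 14), as did Gata4 (5.77 and 9.1 TPM in ALL-VC, 0.99 and 0.16 in ALL, 2.44, adjusted p = 0.0495, 3 of 12). Grb10 lost its call without either ALL-VC or ALL-FGF10 replicate and without ALL-MTG replicate 2, and Gata4 without either ALL-FGF10 or ALL-MTG replicate and without ALL replicate 2. Gata4 passed the filter of 1 TPM in at least 2 libraries only through ALL-VC, so being higher there was a condition of its test. Fits that left out either ALL-VC library could not hold Gata4, which leaves 12 alternatives, and its call was also lost with no filter on TPM. The imprinted gene Dlk1, which was not past the fold in 2C+VC, had 18.9 and 8.09 TPM in ALL-VC and 0.24 and 0 TPM in ALL (limma 3.59, adjusted p = 0.0176). Alternative fits are not given for Dlk1, and both its ALL values lie under the filter of 1 TPM. With it, 3 of 21 imprinted genes were called, all higher in ALL-VC, where 0.209% of all tested genes were called higher. H19 stood at 1.49 and 0.91 TPM in ALL-VC and 1.2 and 0.59 TPM in ALL (0.22, adjusted p = 0.835).

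Several of the largest differences in 2C+VC had no call in ALL-VC. Scgb1a1 stood at 2.44 and 1.25 TPM in ALL-VC and 12.53 and 4.1 TPM in ALL (limma adjusted p = 0.505), all 4 values under its level in 2C+VC. Chil1 (limma -1.19, adjusted p = 0.421) and Lcn2 (-1.45, adjusted p = 0.175) had changes below 0 that did not pass. Sftpa1 (-1.89, adjusted p = 0.0828), Aqp5 (-1.79, adjusted p = 0.0815), Spock2 (-1.88, adjusted p = 0.0718) and Trf (-2.44, adjusted p = 0.0718) likewise did not pass. Lcn2 stood at 1507 and 1865 TPM in ALL-VC, above its 188 TPM in 2C+VC and 25.8 TPM in the unnumbered ALL library. Chil1 (504 and 786 TPM in ALL-VC), Cxcl5 (290 and 305) and Saa3 (146 and 234) were also above both of those libraries. Sftpa1, Aqp5, Spock2 and Trf were lower in ALL-VC than in 2C+VC. These values come from tables normalized apart. By list, 1 of 20 AT2 genes (Muc1), 2 of 20 AT1 genes (Pdpn and Cyp2b10), 5 of 13 MHC genes, 2 of 13 defence genes and 1 of 10 chemokine genes were called, all of them lower in ALL-VC. Of all tested genes, 0.595% were called lower. List medians in ALL-VC were -0.378 for AT2, -1.69 for MHC, -0.997 for defence and -1.32 for chemokines. They were near 0 for AT1 (-0.0125), FGF and ERK response (-0.00891), cholesterol (0.0137) and fatty acid synthesis (-0.0775). For basement membrane genes the median was 0.769. Of 16 interferon-response genes, 1 (Ifi27, limma -3.13, adjusted p = 0.014) was called, and all 16 had a change below 0 in ALL-VC (median -2.69). The Ifi27 call held under 11 of 14 alternative fits. It was lost without either ALL-VC replicate and with no filter on TPM. The unnumbered ALL library held Ifi27 at 9.16 TPM, between the ALL-VC values of 10.45 and 6.69 TPM. No cell cycle gene of 20 was called, though all 20 had a change above 0 (median 1.29, where the median of all genes was 0.18).

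**Figure D4:**
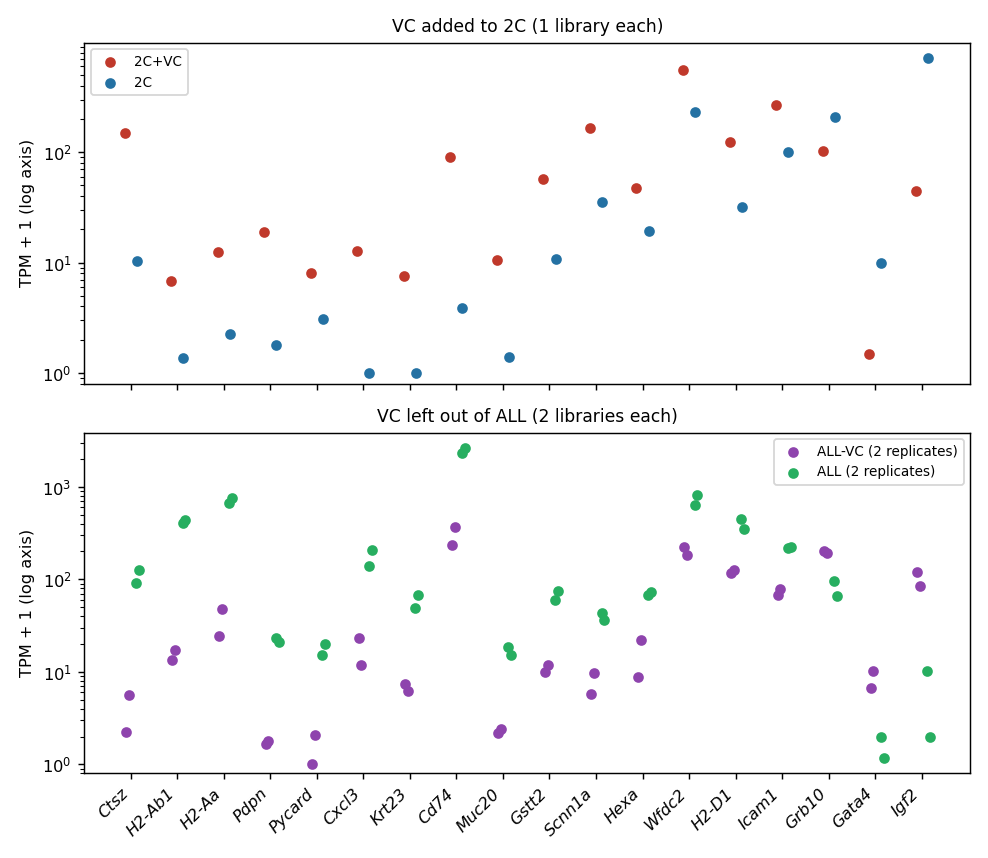
TPM + 1 on a log axis for 18 genes in 2C+VC (red) and 2C (blue), 1 library each, in the upper panel, and in ALL-VC (purple) and ALL (green), 2 libraries each, in the lower panel. Ctsz stands at 147 TPM in 2C+VC and 9.34 in 2C, and at 1.26 and 4.65 in ALL-VC and 90.9 and 124 in ALL. The genes on the left are higher with VC in both panels, and Grb10, Gata4 and Igf2 on the right are lower with VC in both. All 18 are past the fold in 2C+VC and called in the opposite direction in ALL-VC, so the match of the panels is no result.

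Last, the genes were read over all other culture libraries by whether the label holds VC, a comparison added after the values were seen. The 7 libraries read as holding VC are the unnumbered ALL library and the numbered ALL, ALL-MTG and ALL-FGF10 libraries. The 4 without are 2C+F10, 2C+MTG and both of ALL-VC. All 7 are ALL-based while 2 of the 4 are 2C-based, so the base culture and VC cannot be told apart in full, and the 2 tables were normalized apart. Over 12410 genes, the 7 libraries lay wholly above the 4 in 122 (0.983%) and wholly below them in 429 (3.46%). Of 578 genes higher in 2C+VC, 64 lay wholly above (11.1%) and 1, Chia1, wholly below. Of 358 genes lower in 2C+VC, 22 lay wholly below (6.15%) and none wholly above. Ctsz ran from 90.9 to 135.7 TPM in the 7 libraries and from 1.26 to 11.9 TPM in the 4. Pdpn ran from 6.52 to 22.5 TPM in the 7 and from 0.66 to 1.08 TPM in the 4. Gstt2 ran from 41.6 to 72.9 TPM in the 7 and from 9.03 to 12.1 TPM in the 4. In each of these 3 genes the ALL-VC libraries sat with 2C+F10 and 2C+MTG, below every ALL-based library with VC. These 3 genes and Stat6 are named from those without overlap, which requires that order, so it is no result. The 2C+VC library sat within the range of the 7 for Pdpn and Gstt2 and above it for Ctsz (Ctsz 147, Pdpn 17.9 and Gstt2 56.3 TPM). Stat6, a transcription factor of cytokine signalling, ran from 25.7 to 43.8 TPM in the 7 and from 7.01 to 15.2 TPM in the 4, with 42.1 TPM in 2C+VC and 11.7 in 2C.

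**Figure D5:**
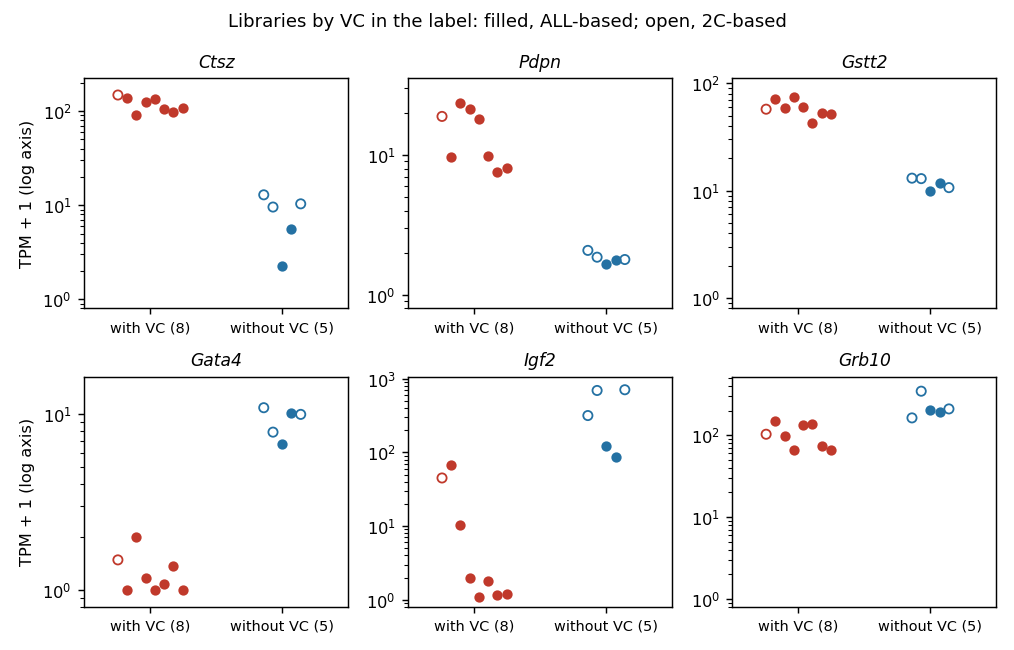
TPM + 1 on a log axis for 6 genes in the 8 libraries whose label is read as holding VC (left, red) and the 5 without (right, blue). Filled points are ALL-based and open points 2C-based libraries; the open red point is 2C+VC and 1 of the open blue points is 2C. Ctsz, Pdpn and Gstt2 lie higher with VC and Gata4, Igf2 and Grb10 lower, with no overlap between the sides. All 6 are among the genes without overlap that 2C+VC and 2C had chosen, so its absence here is no result.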

How the data were processed

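RNA-seq was read from 3 deposited tables of TPM values: the 2C table (5 libraries), the table of numbered ALL-based libraries (8) and the table of tips and organoids (4 and 10). Per the submitters' processing notes, the tools were RSEM and Bowtie2 with the mm10 build, and the TPM values are used as the authors deposited them, scaled to 1000000 per library. TPM keeps no depth, so depth is unknown, and no count model, interval or detection limit is given. Tables were normalized separately and differences were taken within a table. There was 1 column that matched no sample, and it was not used.

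Differences are on the log2(TPM + 1) scale, which understates low genes. ALL-VC was tested against ALL with limma 3.58.1 in R 4.3.3 (trended empirical Bayes, 4 groups of 2, genes at 1 TPM in at least 2 libraries, Benjamini-Hochberg adjustment), after a check on simulated data. Tables and figures used Python 3.11.15, pandas 2.3.3, numpy 2.4.6 and matplotlib 3.10.9. Gene positions are from GENCODE for GRCm38, to which all 55260 symbols matched.

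Genes named were the 15 largest differences each way among protein-coding genes with a name, up to 4 members past the fold per list, and up to 8 genes each way also called in ALL-VC in the opposite direction. List members were also named to describe their list, and Akr1b8, Chia1, Gstt2, Icam1, Stat6, H2-DMb1 and H2-DMb2 after their values were seen. The members and lists were chosen with earlier results of these data known. Other pseudocounts, TPM minimums, rescaling, comparison libraries, designs and left-out replicates were tried.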

Additional observations from a re-analysis of the deposited data

Results flagged for a closer look

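The direction of 2 genes was the same with VC added to 2C and with VC left out of ALL, where the other 53 genes past the fold and called had opposite directions. In each, both ALL-VC libraries lay on the same side of both numbered ALL libraries, and the difference between the 2 settings was not tested. Ceacam2, a gene of the carcinoembryonic antigen family, had 12.0 TPM in 2C+VC and 0.69 TPM in 2C, a difference of 2.94. It also had 12.3 and 17.9 TPM in ALL-VC and 0 and 0.1 TPM in ALL (limma 3.92, adjusted p = 0.0106, called under 11 of 12 alternative fits). In the other table, the unnumbered ALL library held Ceacam2 at 3.04 TPM. Ceacam2 passed the filter of 1 TPM in at least 2 libraries only through ALL-VC, so being higher there was a condition of its test. Fits that left out either ALL-VC library could not hold it, and its call was lost with no filter on TPM (limma adjusted p = 0.0506). The small nucleolar RNA gene Gm23262 had 11.6 TPM in 2C+VC and 33.1 TPM in 2C, a difference of -1.44. It was listed at 0 in both ALL-VC libraries and had 296 and 153 TPM in the ALL libraries (limma -7.74, adjusted p = 0.0367). The unnumbered ALL library, in the other table, held it at 10.47 TPM. Gm23262 was called under 8 of 14 alternative fits. Its call was lost without either ALL-VC or ALL-FGF10 replicate, without ALL replicate 2 and with no filter on TPM. It is a small RNA gene, a type of which 110 of 154 genes were lower in 2C+VC, and the part of library preparation was not tested.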

How the results depend on the processing

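Of 11047 genes, 1062 were past the fold; with a pseudocount of 5 TPM 623 were, and with a minimum of 1 TPM 2030 were. Of the 102 named genes past the fold, 102 remained with a pseudocount of 0.5 TPM, 86 with 5 TPM, 98 after median-ratio rescaling and 91 against the median of 2C, 2C+F10 and 2C+MTG, where Xlr3a turned to 1.57. Of 35 lists with at least 5 members, the median changed sign in 9 with 2C+F10 in place of 2C and in 6 with 2C+MTG. With 2C+F10 these were ciliated genes (-0.196), glucocorticoid and cAMP (-0.0999), cell cycle (0.37), simple keratins (-0.394), NRF2 (-0.407), p53 (-0.237), lysosome (-0.122), claudins (-0.0147) and general lung epithelium (-0.0706). With 2C+MTG they were distal tip (-0.579), BMP and TGF-beta (-0.312), Notch (0.108), collagen hydroxylation (-0.111), basement membrane (-0.129) and iron (0.0734). The causes were not tested.

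The 119 limma calls in ALL-VC became 190 after median-ratio rescaling, 51 with only ALL and ALL-VC in the fit, 27 with no filter on TPM, and 8 to 1309 with 1 replicate left out. The 53 genes of both comparisons became 21 with only ALL and ALL-VC, 13 with no filter, and 4 to 136 with 1 replicate left out. Replicate numbers did not pair the libraries (correlations of deviations -0.0181, 0.114 and 0.0198), and with the replicate block 68 genes were called, 36 of them among the genes of both comparisons. For 2C+VC against 2C no paired analysis was possible because each has 1 library. Where a fit leaves 1 library in an arm, that library is assumed to vary like the other groups. With 1 library per culture, spread between 2C cultures is unknown.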
